A study of Mus musculus with 6 samples.

Results

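Oxidative phosphorylation in mouse lens capsules was followed through the genes of the respiratory chain and ATP synthase. Members were the protein-coding genes whose symbols start as those of complexes I to V do: mt-Nd, mt-Co, mt-Cytb and mt-Atp for the mitochondrial genome, and, for the nucleus, Nduf followed by a, b, c, s or v and a digit, Sdha to Sdhd, Uqcr, Atp5, and Cox with a digit from 4 to 8 followed by a, b or c. Cox4i1, Cox4i2, Ndufab1 and the Ndufaf assembly factors therefore lie outside the rule. Of the 56940 genes counted, 96 met the rule, 13 encoded in the mitochondrion and 83 in the nucleus. They carried 95 symbols, since Atp5o belonged to 2 identifiers, one of which was at 0 counts in every library. The nuclear members comprised 35 genes of complex I, 4 of complex II, 8 of complex III, 16 of complex IV, 17 of complex V and 3 associated proteins (Ndufa4l2, Cox7a2l and Atp5s).

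RNA was sequenced from the capsules of C57BL/6 mice whose genotype the labels give as wildtype. The fiber cell mass of 1 eye was taken out through an incision at the front, and the capsule with its attached lens epithelial cells stayed in the eye. The second eye was operated on 72 h later and both capsules were then collected, so each animal could give a capsule at 0 h and another at 72 h. Each of the 3 libraries per time pooled 5 capsules, and which animals shared a pool is not stated in the sources used here. All 6 library descriptions also carry the tag RUNX_Cre_N, whose meaning they do not give. There was no unoperated group, so that 72 h is compared with 0 h after the same operation.

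The counts in genes were 11338820 to 12432688 per library at 0 h and 8453450 to 8945397 at 72 h. RNA of marker genes for cell types other than lens epithelium was also counted. The marker counts below stand beside 21.0% of all genes called higher and 17.5% called lower at 72 h. Of 8 lens epithelial markers 5 fell and none rose (summed level 5465 to 5727 CPM at 0 h, 3003 to 4157 at 72 h). All 10 lens fiber markers fell (8543 to 9584 against 1209 to 2141 CPM), as did 13 of 14 tested photoreceptor markers (793 to 1953 against 70.8 to 200.9 CPM). Of 15 tested macrophage and monocyte markers 11 rose (35.2 to 51.7 against 216 to 402 CPM). Of 12 neutrophil markers 8 had too few counts to test, and 3 of the 4 tested rose. Ly6g, Mpo, Elane, Ngp and Camp were at 0 in every library. The neutrophil sum was 0.931 to 2.45 CPM at 0 h and 52.9, 26.6 and 167 CPM at 72 h. Of 6 tested fibroblast markers 5 rose (247 to 339 against 841 to 1725 CPM), while the other one, Pdgfra, fell. The 72 h replicate 3 library held keratins at 0.517% of its counts, above the other 5 libraries. Which cells the marker RNA came from, and the part of these cell types in the results below, was not tested. In bulk RNA, fewer cells of a type and less RNA per cell cannot be told apart.

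Complexes I to IV pass electrons from NADH and succinate to oxygen, and complexes I, III and IV pump protons across the inner mitochondrial membrane as they do so. Complex V, the ATP synthase, uses the gradient to make ATP. Complex II is built from nuclear genes alone, whereas complexes I, III, IV and V combine subunits from both genomes. The mitochondrial genes are transcribed as long RNAs that are cut apart at transfer RNAs. In the lens, the epithelial layer holds most of the mitochondria, and fiber cells lose theirs as they mature.

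Several mitochondrial genes have near-identical copies in the nuclear genome, and these sequences are shown because they bear on which counts can be read. In the mouse build GRCm38 the annotated pseudogene Gm10925 on chromosome 1 matches all but the last bases of mt-Atp6 (678 bases without a mismatch). A 60-base stretch, bases 301 to 360 of both, lies at chrM:8227-8286 on the plus strand and at chr1:24614292-24614351 on the minus strand:
mt-Atp6: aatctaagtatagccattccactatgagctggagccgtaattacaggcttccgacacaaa
Gm10925: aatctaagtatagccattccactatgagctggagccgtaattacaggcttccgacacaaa
The start of mt-Nd3 (chrM:9459-9491, plus strand) and that of its copy Gm28438 (chr1:24613087-24613119, minus strand) differ by T3C, counted from the first base of the mitochondrial transcript. It is the single mismatch in 345 aligned bases and is in capitals:
mt-Nd3: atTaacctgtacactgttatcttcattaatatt
Gm28438: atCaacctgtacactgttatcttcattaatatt
The 3′ part of mt-Co1 has the copy Gm29216, with the single mismatch A1066T in 483 aligned bases (chrM:6390-6423, plus strand, and chr1:24616155-24616188, minus strand; mismatch in capitals):
mt-Co1: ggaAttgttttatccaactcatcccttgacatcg
Gm29216: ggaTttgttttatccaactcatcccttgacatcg
The genes mt-Atp8 and mt-Atp6 also overlap each other by 43 bases, which are in capitals in the stretch chrM:7912-7984 on the plus strand:
mt-Atp8 and mt-Atp6: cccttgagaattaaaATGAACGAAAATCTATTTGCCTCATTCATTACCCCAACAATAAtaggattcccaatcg

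Every annotated transcript sequence was cut into words of 50 bases, and the share of a gene's words found in no other gene was taken. That share was 100% for mt-Nd1, mt-Nd6, mt-Cytb and mt-Atp8, 92.4% for mt-Nd5 and 91.8% for mt-Nd2. It was 48.9% for mt-Co1 and 37.8% for mt-Nd4, whose opening 876 bases are identical to Gm28439. It was 2.01% for mt-Nd3, 1.21% for mt-Nd4l, 0.475% for mt-Atp6, 0.136% for mt-Co3 and 0% for mt-Co2, whose copy Gm28661 matches 681 bases. The genes with few words of their own had few counts. Per kilobase of exon, the mean level at 0 h was 0.281 to 2.13 CPM for mt-Nd4l, mt-Atp6, mt-Co3 and mt-Co2 and 33.6 CPM for mt-Nd3, against 169 to 1206 CPM for the 7 genes with a larger share of their own words other than mt-Atp8. The gene mt-Atp8, at 100%, was also low, with 0.141 CPM per kilobase. Its last 43 bases match Gm10925 without a mismatch, a stretch shorter than a word. On the mitochondrial genome mt-Atp8 lies between mt-Co1 and mt-Atp6, whose copies shown above are both on the minus strand of chromosome 1. Sequence outside annotated transcripts was not compared, so the 100% does not show that mt-Atp8 has no nuclear copy. The labels do not say how reads matching several places were counted, and the part of the copies in these low levels was not tested. The files' line for reads that aligned to more than 1 place held 4.38% to 4.68% of the reads of a 0 h library and 6.68% to 8.26% of those of a 72 h library. Of the 83 nuclear members, 34 had every word to themselves and 1 had under 50%.

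**Figure D1:**
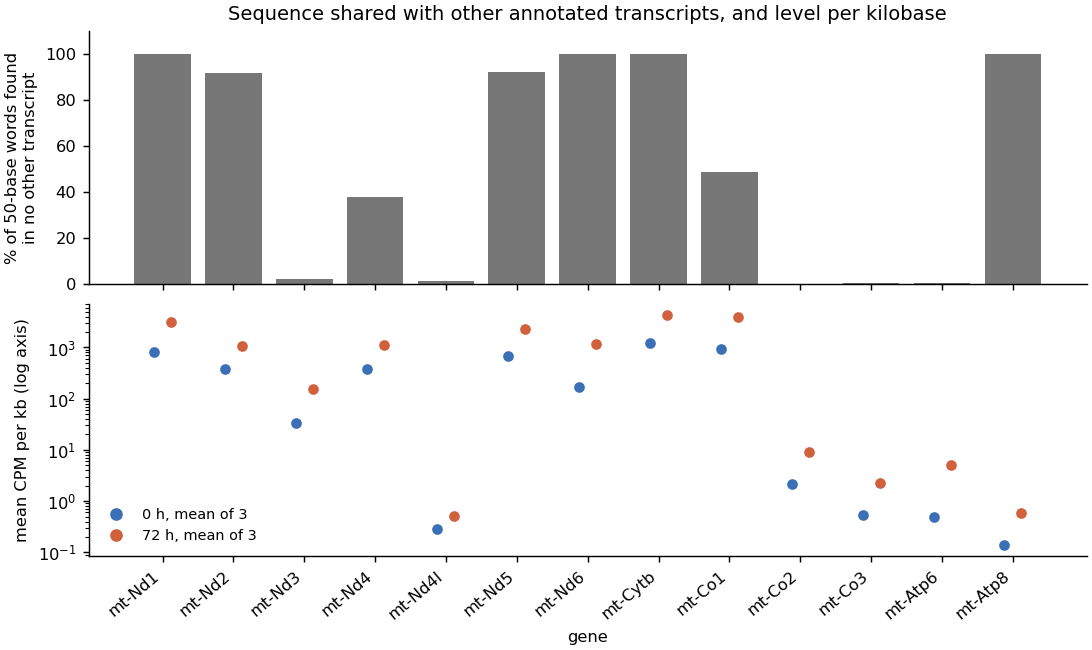
The upper panel gives, for each mitochondrially encoded gene, the percent of its 50-base words found in no other annotated transcript, and the lower panel its mean CPM per kilobase on a log axis at 0 h (blue) and 72 h (orange), n = 3. The genes near 0% in the upper panel, and mt-Atp8 at 100%, lie lowest in the lower one. Copies outside annotated transcripts were not looked for.

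Most mitochondrially encoded genes rose. Of 11 tested, 10 were higher at 72 h and none was lower, also in DESeq2 and limma voom, and all 11 were higher at an unadjusted p under 0.05. Their median log2 fold change was 2.07, and the groups did not overlap for any of the 11. Of all 15407 genes tested, 21.0% were called higher and 17.5% lower, or 38.5% in either direction (edgeR, adjusted p under 0.05), 26.5% had every 72 h library above every 0 h library and 26.9% had every one below, and the median log2 fold change was -0.02. Of the tested genes, 3 (mt-Co2, mt-Co3 and mt-Atp6) had under 100 counts on average and passed the filter on low counts through the 72 h libraries, so the 8 genes with a mean of at least 100 counts are given apart. All 8 rose, with log2 fold changes from 1.48 to 2.77 and a median of 1.89. Levels are CPM, a library-scaled count, after TMM scaling, and log2 fold changes are 72 h over 0 h.

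Complex I takes 7 of its subunits, all in the membrane arm that pumps protons, from the mitochondrial genome. The mt-Nd1 level was 770, 789 and 811 CPM in the 0 h libraries and 2810, 2670 and 3741 CPM at 72 h (log2 fold change 1.96 ± 0.13 SE, edgeR adjusted p = 4.34e-06). The mt-Nd5 level went from 1245, 1186 and 1250 CPM to 3506, 3464 and 5616 CPM (1.77 ± 0.18 SE, adjusted p = 7.6e-05). In both genes replicate 3 was the highest of the 72 h libraries and the 0 h libraries lay close together. Lower levels were found for mt-Nd4 (515 to 548 CPM at 0 h, 1281 to 2007 at 72 h) and mt-Nd2 (390 to 419 against 931 to 1398 CPM), which showed the smallest changes of the 8, at log2 fold changes of 1.52 ± 0.17 and 1.48 ± 0.15 SE.

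The one protein gene on the light strand of the mitochondrial genome, mt-Nd6, rose most among the 8. It stood at 100.1, 84.0 and 78.5 CPM at 0 h and at 531, 448 and 807 CPM at 72 h (log2 fold change 2.77 ± 0.23 SE, adjusted p = 4.72e-05). Of the counts of the 13 genes together, mt-Nd6 took 1.49% ± 0.176 in the 0 h libraries and 2.74% ± 0.203 in the 72 h libraries (SD, n = 3), without overlap. The strand setting of the counting is not given, so reads from the opposite strand at mt-Nd6 cannot be told apart from its own. The shares of mt-Nd4 (9.03% ± 0.169 to 7.06% ± 0.158) and mt-Nd2 (6.84% ± 0.289 to 5.23% ± 0.307) were lower at 72 h, also without overlap. The level of mt-Nd3, which shares nearly all its sequence with the copy shown above, went from 10.3 to 13.3 CPM to 41.0 to 75.6 CPM (2.23 ± 0.24 SE, adjusted p = 7.65e-05). The gene mt-Nd4l had 3 counts in all at 0 h and 4 at 72 h and was not tested.

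Cytochrome b, the mitochondrial subunit of complex III, stood at 1415, 1322 and 1402 CPM for mt-Cytb at 0 h and at 4461, 4077 and 6171 CPM at 72 h (1.83 ± 0.15 SE, adjusted p = 1.38e-05). All of its 50-base words are its own among annotated transcripts. For complex IV, mt-Co1, the subunit that holds the oxygen-reducing site, stood at 1522, 1418 and 1422 CPM at 0 h and at 4932, 4966 and 8444 CPM at 72 h (2.07 ± 0.21 SE, adjusted p = 0.000109). It was the highest of the 13 genes in CPM in every library. The other mitochondrial subunits of complex IV had few counts. The gene mt-Co2 had 20, 8 and 25 counts at 0 h and 54, 35 and 69 at 72 h, was called higher (2.08 ± 0.55 SE, adjusted p = 0.0139) and lost the call without 0 h replicate 2 (adjusted p = 0.0554). The gene mt-Co3 had 6, 7 and 2 counts against 20, 10 and 16 and was not called (2.07 ± 0.80 SE, adjusted p = 0.0673), and was called with the stricter filter (adjusted p = 0.0374). The copy Gm28661 of mt-Co2 had 5, 6 and 9 counts at 0 h and 13, 12 and 36 at 72 h. The copy Gm28437 of mt-Co3 had 9, 5 and 5 against 21, 12 and 18.

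In ATP synthase, the mitochondrial genome encodes the proton channel subunit a (mt-Atp6) and a small membrane subunit (mt-Atp8). The mt-Atp6 counts were 5, 2 and 5 at 0 h and 11, 36 and 41 at 72 h, and it was called higher (3.34 ± 0.80 SE, adjusted p = 0.00829). Its copy Gm10925 had more, with 15, 15 and 21 counts at 0 h and 72, 68 and 110 at 72 h. How reads of the shared sequence were divided between the 2 is not given. The gene mt-Atp8 had 1 count in all at 0 h and 3 at 72 h and was not tested.

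**Figure D2:**
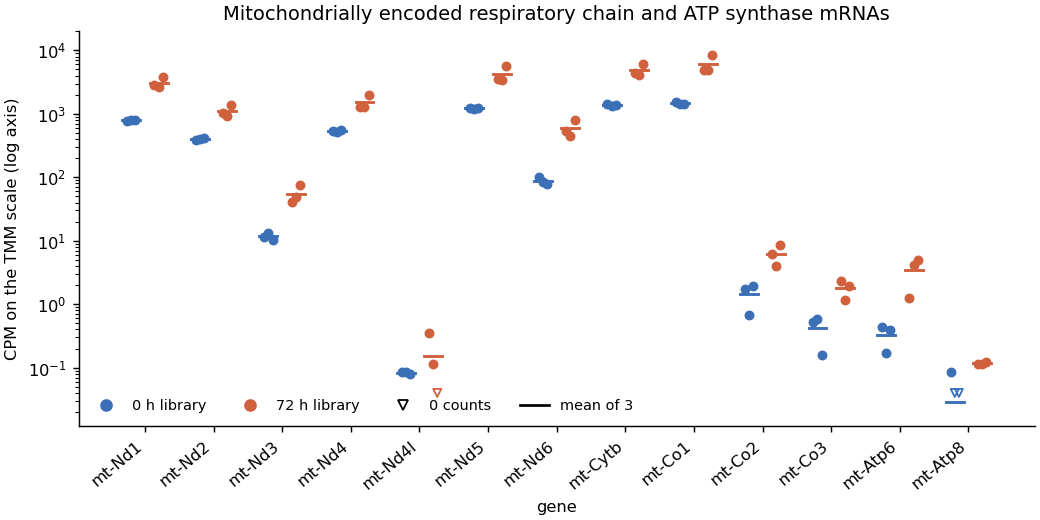
CPM on the TMM scale (log axis) of the 13 mitochondrially encoded members in each library at 0 h (blue) and 72 h (orange), with bars at the mean of 3 libraries and open triangles for 0 counts. All 3 orange points lie above all 3 blue points for each of the 11 tested genes, and mt-Nd4l and mt-Atp8 lie at or near 0 counts.

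The RNAs of the mitochondrial ribosome, read from the same genome, moved with the messenger RNAs. The small-subunit RNA mt-Rnr1 was at 8223 to 8647 CPM at 0 h and 40433 to 69405 CPM at 72 h (log2 fold change 2.60 ± 0.20 SE, adjusted p = 1.36e-05). The large-subunit RNA mt-Rnr2 was at 23482 to 23787 against 107329 to 179423 CPM (2.50 ± 0.19 SE, adjusted p = 8.67e-06). Together their share of gene counts was 3.25% ± 0.0669 in the 0 h libraries and 17.9% ± 4.24 in the 72 h libraries (SD, n = 3). The library kit removes ribosomal sequences before sequencing, and the part of that step in these shares was not tested. Of 22 mitochondrial transfer RNAs only mt-Ty and mt-Tp had enough counts to test, and both rose (mt-Ty 3.13 to 4.06 against 13.1 to 33.3 CPM, log2 fold change 2.48 ± 0.41 SE, adjusted p = 0.00106). The call of mt-Tp was lost with the replicate block (adjusted p = 0.0591) and in 4 of the 6 fits that leave out a library.

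Where nuclear encoded members were called, they fell. Of 77 tested, 31 fell, none rose and 46 were not called, against 17.5% of all genes called lower. Their median log2 fold change was -0.54, and 70 of 77 had a value below 0. In 49 of them every 72 h library lay below every 0 h library (26.9% of all genes), and in 2 every one lay above. None was called higher by DESeq2 or limma voom either, and 1 (Sdhc) was higher at an unadjusted p under 0.05 in edgeR. The 31 became 21 to 37 when 1 library was left out. Among protein-coding genes outside the set, the median log2 fold change was -0.27 for genes under 1 kb of exon, -0.11 from 1 to 2 kb, -0.03 from 2 to 4 kb and 0.04 from 4 kb. The nuclear members had medians of -0.73 (17 genes), -0.43 (31), -0.26 (19) and -0.44 (10) in the same 4 classes. The shares called lower outside the set were 23.9%, 18.3%, 18.7% and 18.6%, from the shortest class to the longest. Those of the nuclear members were 47.1%, 38.7%, 31.6% and 50.0%. The Spearman correlation of log2 fold change with exon length over the 77 was 0.25. The part of length in the falls was not tested.

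**Figure D3:**
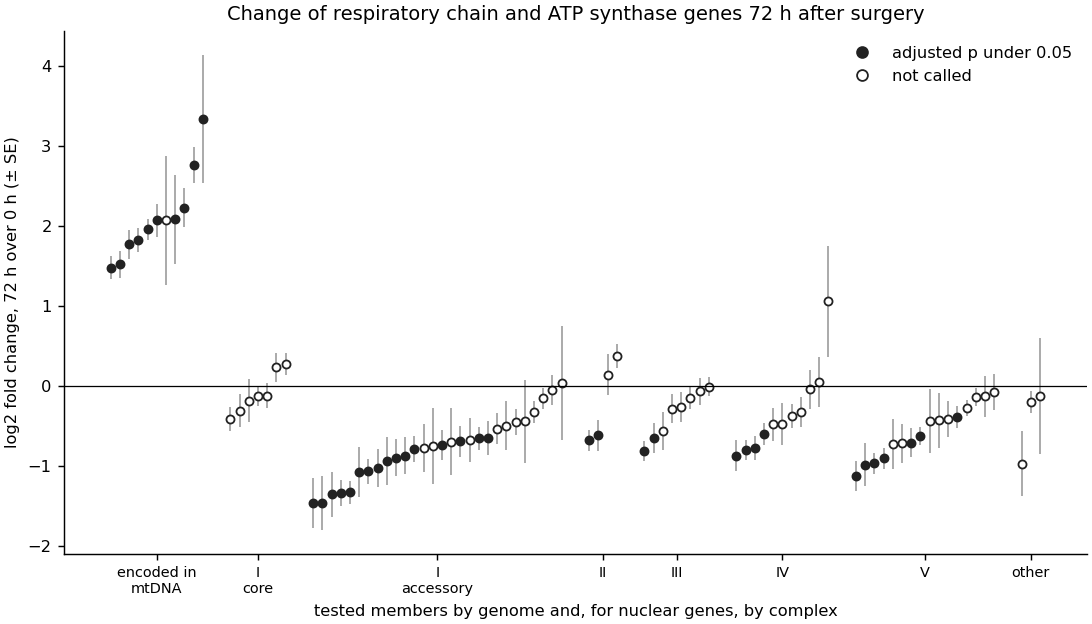
Log2 fold change of 72 h over 0 h (± SE) for the 88 tested members, ordered by value within the mitochondrially encoded genes and within each nuclear group, with filled points for an edgeR adjusted p under 0.05. The 11 mitochondrially encoded genes lie above 1 and all 31 filled nuclear points lie below 0.

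Within complex I the falls lay among the accessory subunits. Of the 28 nuclear accessory subunits, which surround the catalytic core, 16 fell (median log2 fold change -0.75), against 17.5% of all genes called lower. Of the 7 nuclear core subunits, which carry the flavin and the iron-sulfur clusters, none was called by edgeR, DESeq2 or limma voom (median -0.13, range -0.41 to 0.28). Ndufs7 alone had an unadjusted p under 0.05, and it was called with upper quartile scaling. The difference between the groups was not tested. The median exon length was 2178 bases for the core subunits and 1234 bases for the accessory ones. Without 0 h replicate 3 the 16 became 10.

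The largest falls in complex I were those of Ndufa7 and Ndufa1. Ndufa7, an accessory subunit of the matrix arm, was at 18.9, 14.4 and 18.1 CPM at 0 h and at 5.79, 4.27 and 8.56 CPM at 72 h (log2 fold change -1.47 ± 0.31 SE, edgeR adjusted p = 0.00449). Ndufa1, a small X-linked membrane subunit, was at 20.4, 28.8 and 27.2 CPM against 7.18, 14.4 and 5.99 CPM (-1.47 ± 0.33 SE, adjusted p = 0.00637). In neither gene did the groups overlap. Ndufb subunits, which belong to the membrane arm, followed. Ndufb5 was at 36.4 to 39.2 CPM at 0 h and 9.17 to 21.8 CPM at 72 h (-1.36 ± 0.28 SE, adjusted p = 0.00362). Ndufb4 was at 45.0 to 49.8 against 17.0 to 21.0 CPM (-1.34 ± 0.16 SE, adjusted p = 0.000131). Ndufb10 had the smallest adjusted p of the nuclear members, 6.94e-05, at 68.8, 60.4 and 67.3 CPM against 22.9, 28.4 and 26.7 CPM (-1.33 ± 0.14 SE).

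The other accessory subunits that fell were Ndufs5, Ndufa12, Ndufa3, Ndufa5, Ndufa9, Ndufb11, Ndufs4, Ndufb7, Ndufa2, Ndufa13 and Ndufa11, with log2 fold changes from -1.08 to -0.65. Ndufs5 was the steadiest of them across libraries, at 42.5, 42.0 and 42.0 CPM at 0 h and 17.9, 22.2 and 20.2 CPM at 72 h (-1.07 ± 0.15 SE, adjusted p = 0.000463). Ndufs4, a subunit of the matrix arm whose loss causes Leigh-like disease in mice, was at 49.4 to 54.0 against 25.0 to 35.7 CPM (-0.79 ± 0.16 SE, adjusted p = 0.0038). Accessory subunits not called included Ndufa10 (-0.16 ± 0.13 SE) and Ndufc2 (-0.05 ± 0.19 SE). Ndufb8 had few counts (1.81 to 2.62 CPM at 0 h, 0.978 to 4.28 at 72 h) and was not called. The other 9, among them the 4 Ndufb subunits Ndufb2, Ndufb3, Ndufb6 and Ndufb9, had log2 fold changes from -0.78 (Ndufb6) to -0.33 (Ndufa6). Ndufv3 (adjusted p = 0.0505) and Ndufc1 (adjusted p = 0.0538) lay just above the threshold, and both were called without 72 h replicate 3 (adjusted p = 0.00403 and 0.0460). Both were also called with library size alone (adjusted p = 0.0237 and 0.0406) and with upper quartile scaling (adjusted p = 0.0202 and 0.0294). Ndufv3 was called as well with limma voom, without a filter, with the stricter filter and with the replicate block (adjusted p from 0.0125 to 0.0490). Ndufa6 and Ndufb6 were called with library size alone, with upper quartile scaling and without 72 h replicate 3 (adjusted p from 0.0163 to 0.0488). Ndufa8 was called without 72 h replicate 2 (adjusted p = 0.0487). Of the falls, Ndufa2, Ndufa5, Ndufa9, Ndufa11, Ndufa12 and Ndufb11 lost the call without 0 h replicate 3 (adjusted p from 0.0547 to 0.128), and all of these but Ndufa9 also without at least 1 other library.

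The groups overlapped for 5 of the 7 core subunits. Ndufs1, the largest core subunit, was at 43.7 to 46.7 against 47.8 to 61.7 CPM (0.28 ± 0.14 SE, adjusted p = 0.146), and every 72 h library lay above every 0 h library. Ndufv1, which binds NADH, was at 35.0 to 36.8 against 31.7 to 50.6 CPM (0.23 ± 0.18 SE, adjusted p = 0.349). Ndufs7 had the lowest fold change of the core (-0.41 ± 0.15 SE, adjusted p = 0.0585), with every 72 h library below.

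**Figure D4:**
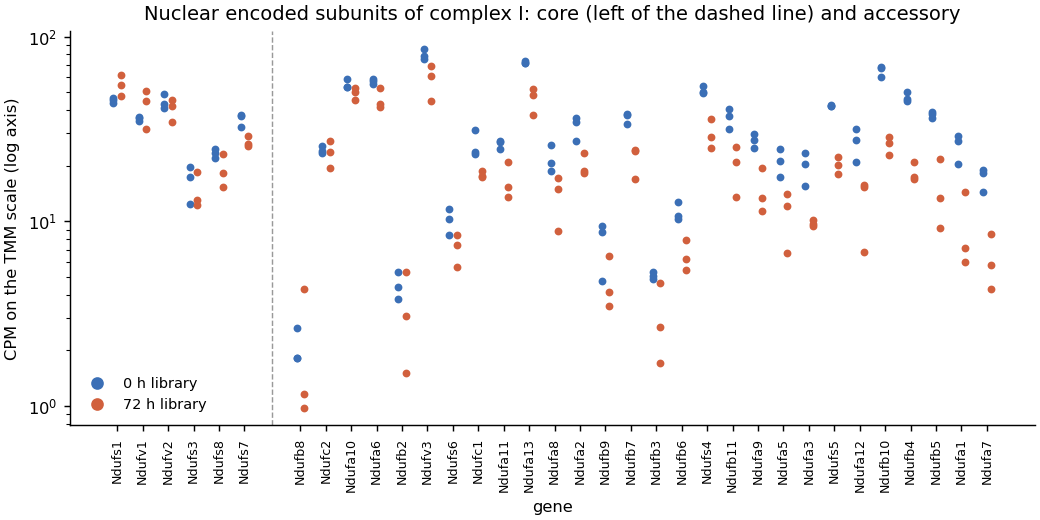
CPM on the TMM scale (log axis) of 34 nuclear encoded complex I subunits in each library at 0 h (blue) and 72 h (orange), 6 core subunits left of the dashed line and the 28 accessory ones right of it, each group ordered by log2 fold change. The colours mix for most core subunits, and orange lies wholly below blue for 23 of the accessory ones, against 26.9% of all genes.

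Complex II, succinate dehydrogenase, joins the citric acid cycle to the chain. Its flavoprotein Sdha was at 171, 177 and 154 CPM at 0 h and 99.8, 123 and 90.6 CPM at 72 h (-0.68 ± 0.13 SE, adjusted p = 0.00237). The iron-sulfur subunit Sdhb was at 50.6, 55.8 and 51.7 against 27.0, 45.9 and 30.1 CPM (-0.62 ± 0.20 SE, adjusted p = 0.0322), and lost the call without any one of the 0 h libraries or without 72 h replicate 1 (adjusted p from 0.0725 to 0.107). The membrane anchors were not called. Sdhc was at 25.9 to 30.7 against 34.3 to 37.9 CPM (0.38 ± 0.15 SE, adjusted p = 0.0754), with every 72 h library above, and Sdhd at 22.3 to 25.8 against 16.6 to 34.5 CPM (0.14 ± 0.25 SE, adjusted p = 0.697).

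In complex III, 2 of 8 nuclear subunits fell, a share near the 17.5% of all genes called lower. Uqcrb, a small subunit near the quinone site, was at 59.9, 58.9 and 61.7 CPM at 0 h and 31.5, 35.5 and 35.6 CPM at 72 h (-0.82 ± 0.13 SE, adjusted p = 0.000762). Uqcr11, the smallest subunit, was at 23.7 to 26.5 against 15.2 to 18.0 CPM (-0.65 ± 0.19 SE, adjusted p = 0.0196), and lost the call without any one of the 0 h libraries (adjusted p from 0.051 to 0.0768). The core protein Uqcrc1 was at 79.6, 69.8 and 71.1 against 79.3, 70.4 and 69.3 CPM (-0.01 ± 0.12 SE, adjusted p = 0.961). The Rieske protein Uqcrfs1 was not called (-0.28 ± 0.19 SE), nor were Uqcr10, Uqcrc2, Uqcrq and Uqcrh, with log2 fold changes from -0.57 (Uqcr10) to -0.07 (Uqcrh). Cytochrome c1 lies outside the symbol rule. Its gene Cyc1 was called lower (-0.63 ± 0.20 SE, adjusted p = 0.029), and lost the call without 0 h replicate 1, 0 h replicate 3 or 72 h replicate 2 (adjusted p from 0.071 to 0.116).

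Complex IV, cytochrome c oxidase, had 4 of 11 tested nuclear subunits lower, against 17.5% of all genes. Cox6c was the most abundant in CPM, at 163, 159 and 175 CPM at 0 h and 83.1, 113 and 89.1 CPM at 72 h (-0.80 ± 0.13 SE, adjusted p = 0.000837). Cox8a was at 52.2, 59.7 and 53.2 against 21.9, 38.6 and 29.8 CPM (-0.87 ± 0.20 SE, adjusted p = 0.00656). Cox6a1 was at 41.7 to 44.8 against 22.5 to 27.4 CPM (-0.77 ± 0.15 SE, adjusted p = 0.00257), and Cox7b at 46.0 to 46.4 against 27.4 to 33.0 CPM (-0.60 ± 0.14 SE, adjusted p = 0.00713). All 4 were lower in every 72 h library. Cox4i1, a regulatory subunit outside the symbol rule, also fell (124 to 138 against 82.2 to 98.8 CPM, -0.54 ± 0.11 SE, adjusted p = 0.00325). Cox7a2 was not called (-0.48 ± 0.26 SE, adjusted p = 0.180) and was called without 72 h replicate 2 (adjusted p = 0.0431). Cox5a, Cox5b, Cox6b1 and Cox7c were not called, with log2 fold changes from -0.48 to -0.04. Cox5b was called with upper quartile scaling (adjusted p = 0.0308).

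Several complex IV subunits come in tissue forms, and at both times Cox6a1, Cox6b1, Cox7a2, Cox7b and Cox8a, the widely expressed forms, had a higher CPM per kilobase than their tissue forms (Cox8a 88.9 and 48.6, Cox8b 0.846 and 1.34). The muscle forms Cox6a2, Cox7a1 and Cox8b had too few counts to test. Cox6a2 had 3 counts at 0 h and 5 at 72 h, and Cox8b 11 and 12. Cox7a1 had 5, 10 and 17 counts in the 0 h libraries against 1, 0 and 0 in the 72 h libraries, a ratio of the sums, per effective library size, of 22.6 (exact 95% interval 3.78 to 921, counting error only). The muscle marker list was at 12.9 to 54.9 CPM at 0 h and 11.5 to 14.7 CPM at 72 h, with 7 of its 16 genes at 0 in every 72 h library, and its part in Cox7a1 was not tested. The testis form Cox7b2 had 0, 4 and 9 counts at 0 h and 0, 0 and 1 at 72 h, so that the groups overlapped and most counts came from 0 h replicate 3. Cox8c had none, and Cox6b2 was not called (1.06 ± 0.70 SE, adjusted p = 0.263). The lung form Cox4i2, outside the rule, was not called, at 2.24 ± 0.618 against 2.79 ± 2.17 CPM (SD, n = 3). Ndufa4, now counted with complex IV, was not called (0.05 ± 0.31 SE). Its hypoxia-induced relative Ndufa4l2 was at 11.6, 11.3 and 20.7 CPM at 0 h and 5.56, 5.20 and 29.3 CPM at 72 h. The high value was in 72 h replicate 3, the library with keratins. Ndufa4l2 was not called over all libraries (-0.12 ± 0.73 SE, adjusted p = 0.916) and was lower without that library (-1.42, adjusted p = 0.00474).

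ATP synthase was the most abundant of the nuclear groups in summed CPM. Of its 16 tested members 7 fell, against 17.5% of all genes called lower. The peripheral stalk subunit Atp5h was at 184, 190 and 182 CPM at 0 h and 102, 114 and 80.2 CPM at 72 h (-0.91 ± 0.13 SE, adjusted p = 0.000451), and the stalk subunit Atp5j also fell (-0.63 ± 0.11 SE, adjusted p = 0.00178). In the membrane part, Atp5j2 had the largest fall of the complex, from 42.0, 30.7 and 34.8 CPM to 18.1, 14.1 and 17.0 CPM (-1.13 ± 0.19 SE, adjusted p = 0.00121). Atp5mpl (-0.97 ± 0.13 SE, adjusted p = 0.000362) and Atp5l (-0.71 ± 0.19 SE, adjusted p = 0.0128) also fell. Without 0 h replicate 1, or without 0 h replicate 2, the 7 became 4, as Atp5l (adjusted p = 0.0510 and 0.0578), Atp5b and Atp5e lost the call.

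Of the catalytic F1 part, the epsilon subunit Atp5e was at 26.6, 25.0 and 26.4 CPM at 0 h and 7.87, 15.6 and 15.9 CPM at 72 h (-0.99 ± 0.27 SE, adjusted p = 0.0164). It lost the call without any one of the 0 h libraries (adjusted p from 0.0505 to 0.0585). The beta subunit Atp5b, which carries the catalytic sites, was at 327, 342 and 327 CPM against 269, 292 and 199 CPM (-0.39 ± 0.14 SE, adjusted p = 0.0454). It lost the call with library size alone (adjusted p = 0.0673), and without any one of the 0 h libraries or 72 h replicate 1 (adjusted p from 0.0654 to 0.130). The alpha subunit Atp5a1 was the most abundant nuclear member in CPM, at 352 to 374 against 277 to 338 CPM. It was not called (-0.28 ± 0.10 SE, adjusted p = 0.0593), although every 72 h library was lower. It was called with upper quartile scaling (adjusted p = 0.0206), with limma voom (adjusted p = 0.0372) and without 72 h replicate 2 (adjusted p = 0.0146). The 3 genes for the identical mature c subunit, Atp5g1, Atp5g2 and Atp5g3, were not called (-0.44 ± 0.40, -0.13 ± 0.26 and -0.08 ± 0.22 SE), also in DESeq2, limma voom and at an unadjusted p under 0.05. The gamma subunit Atp5c1 lay just above the threshold (-0.72 ± 0.25 SE, adjusted p = 0.0507) and was called by DESeq2 (adjusted p = 0.0144) and limma voom (adjusted p = 0.0199). Atp5c1 was also called with upper quartile or RLE scaling, and with the stricter filter. The same held with mitochondrial or crystallin RNA left out, and without 72 h replicate 2 or 3 (adjusted p from 0.0103 to 0.0494 in these fits). Atp5k, Atp5o, Atp5f1 and Atp5d were not called, with log2 fold changes from -0.73 to -0.14. Atp5f1 was called without 72 h replicate 2 (adjusted p = 0.0463). Of the associated genes, Atp5s (-0.97 ± 0.40 SE, adjusted p = 0.0844) and Cox7a2l (-0.20 ± 0.14 SE, adjusted p = 0.273) were not called. Atp5s was called without 72 h replicate 1 (adjusted p = 0.0356). The ATPase inhibitor Atpif1, outside the rule, was at 105.1 to 112.2 against 103.3 to 116.3 CPM and was not called. Its log2 fold change of 0.03 became -0.02 with library size alone and -0.06 with upper quartile scaling.

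Summed over members, both genomes' contributions moved apart. The mitochondrially encoded members summed to 5886 ± 140 CPM at 0 h and 21594 ± 5796 CPM at 72 h, 3.67-fold higher. The nuclear members summed to 3870 ± 48.3 CPM at 0 h and 2762 ± 223 CPM at 72 h, 0.714 of the 0 h level (SD, n = 3). The ratio of the mitochondrial to the nuclear sum was 1.57, 1.48 and 1.52 in the 0 h libraries and 6.81, 5.97 and 11.1 at 72 h. This ratio does not depend on the scaling between libraries. It had no overlap between the groups, with 72 h replicate 3 the highest, and the ratio of the means, 5.23, became 4.20 without that library. No test was made on sums.

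By complex, the mitochondrial to nuclear ratio went from 2.52 ± 0.0251 to 12.6 ± 3.15 in complex I, from 3.87 ± 0.191 to 16.9 ± 5.17 in complex III and from 3.28 ± 0.199 to 21.2 ± 7.21 in complex IV (SD, n = 3). In complex V the mitochondrial side rested on the few counts of mt-Atp6 and mt-Atp8 and the ratio is not read. The nuclear sum at 72 h was 0.693 of that at 0 h in complex I, 0.741 in complex II, 0.824 in complex III, 0.653 in complex IV and 0.712 in complex V. None of these nuclear sums overlapped between the groups.

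**Figure D5:**
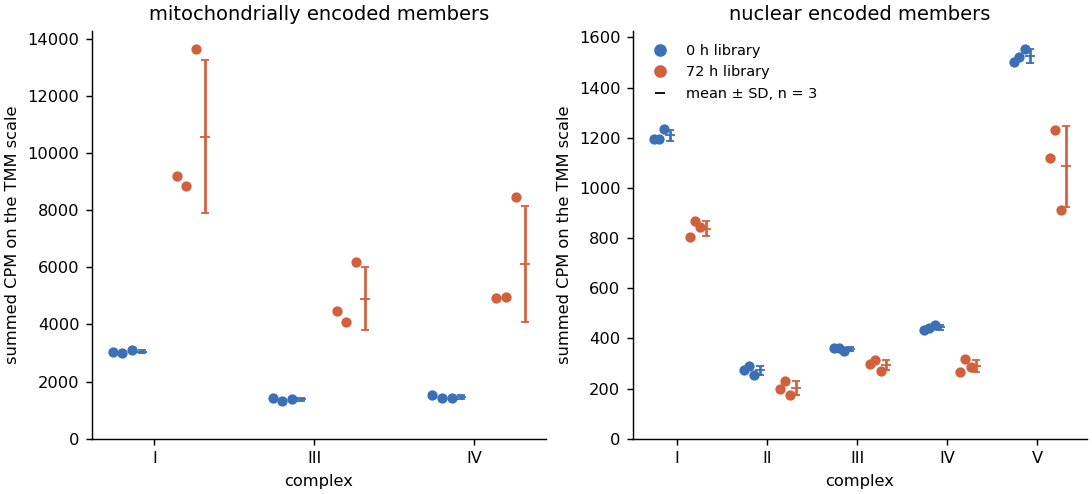
Summed CPM on the TMM scale by complex for the mitochondrially encoded members (left) and the nuclear encoded members (right), with a point per library at 0 h (blue) and 72 h (orange) and the mean ± SD of 3. The orange points lie above the blue in each complex on the left and below in each on the right, and 72 h replicate 3 is the highest on the left.

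Promoters are shown for 3 nuclear members that fell, each of another complex, and for Uqcrc1, which was not called. Those shown hold 2 or 3 matches each and do not stand for the members as a set. Capitals mark matches on either strand to the NRF1 core and to the core letters for ETS factors such as GABP (CCGGAAG), regulators known to act on this gene family. Each sequence holds 250 bases before and 50 bases after the start of transcription, from RefSeq on GRCm38.p6, printed in the direction of the gene:
Atp5h (chr11:115419870-115420169, minus strand): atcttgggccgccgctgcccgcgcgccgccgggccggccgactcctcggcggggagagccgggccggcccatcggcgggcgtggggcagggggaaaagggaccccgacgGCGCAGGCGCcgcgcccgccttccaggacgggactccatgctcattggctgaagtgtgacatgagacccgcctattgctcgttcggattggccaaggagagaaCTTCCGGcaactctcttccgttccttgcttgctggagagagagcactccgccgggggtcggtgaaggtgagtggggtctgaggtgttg
Cox6a1 (chr5:115348909-115349208, minus strand): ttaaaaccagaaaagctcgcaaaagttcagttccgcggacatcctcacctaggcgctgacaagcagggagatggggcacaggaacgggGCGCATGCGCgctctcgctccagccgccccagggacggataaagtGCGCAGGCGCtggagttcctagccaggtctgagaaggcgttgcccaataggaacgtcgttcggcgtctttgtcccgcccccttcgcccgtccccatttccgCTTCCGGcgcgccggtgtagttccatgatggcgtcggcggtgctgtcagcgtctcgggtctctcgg
Ndufb4 (chr16:37654319-37654618, minus strand): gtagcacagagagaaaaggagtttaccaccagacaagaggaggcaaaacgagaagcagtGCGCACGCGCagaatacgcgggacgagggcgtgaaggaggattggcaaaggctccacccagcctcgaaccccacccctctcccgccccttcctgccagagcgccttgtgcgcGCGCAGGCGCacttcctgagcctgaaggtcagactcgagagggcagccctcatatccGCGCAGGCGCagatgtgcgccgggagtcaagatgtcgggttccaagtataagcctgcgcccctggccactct
Uqcrc1 (chr9:108936398-108936697, plus strand): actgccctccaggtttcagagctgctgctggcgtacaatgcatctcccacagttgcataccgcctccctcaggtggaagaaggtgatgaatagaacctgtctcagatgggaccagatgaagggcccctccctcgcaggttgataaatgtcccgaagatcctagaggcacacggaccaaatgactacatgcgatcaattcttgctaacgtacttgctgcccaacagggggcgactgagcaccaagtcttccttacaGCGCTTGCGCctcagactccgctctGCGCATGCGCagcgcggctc
The table held a promoter for 67 of the 82 nuclear symbols. An NRF1 core was in 17 of 67 (25.4%), against 5.19% of 27025 genes. An ETS core was in 16 (23.9%, against 9.93%), and a YY1 core (AAGATGGC) in 10 (14.9%, against 3.19%). Of 27 members that fell, 7 held an NRF1 core, 9 an ETS core and 5 a YY1 core. Of 37 tested and not called, 10, 7 and 5 did. Any of these cores was in 18 of the 27 and in 19 of the 37. A match is a run of letters and not a shown binding site. No match shown overlaps another.

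Of 13 biogenesis regulators 3 rose (Myc, Yy1 and Pprc1) and 3 fell (Esrrg, Esrrb and Ppara), shares near those of all genes (21.0% higher, 17.5% lower). Yy1 lost the call without 0 h replicate 1, 0 h replicate 3 or 72 h replicate 1 (adjusted p from 0.0532 to 0.0853), and Ppara without 0 h replicate 1 (adjusted p = 0.0576). The growth regulator Myc was at 5.06 ± 0.446 CPM at 0 h and 36.7 ± 6.33 at 72 h (SD, n = 3, log2 fold change 2.86 ± 0.22 SE, adjusted p = 8.84e-06). The nuclear receptor Esrrg was at 14.9 ± 2.30 against 3.93 ± 1.68 CPM (-1.92 ± 0.37 SE, adjusted p = 0.00263). The coactivator Ppargc1a was at 20.2, 16.5 and 22.2 CPM at 0 h and 5.56, 10.5 and 0.978 CPM at 72 h. It missed the threshold (-1.78 ± 0.65 SE, adjusted p = 0.068) and passed it with DESeq2 (adjusted p = 0.00687), with limma voom (adjusted p = 0.0119) and without 72 h replicate 2 or 3. Nrf1 (0.33 ± 0.17 SE), Gabpa (0.20 ± 0.13 SE) and Ppargc1b (-0.34 ± 0.31 SE) were not called, and Nrf1 was called without 72 h replicate 3 (adjusted p = 0.0305).

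Of 29 tested genes for copying, transcribing and handling mitochondrial RNA and DNA, 2 rose, 1 fell and 26 were not called, fewer calls in either direction than the shares of all genes. Polg, the mitochondrial DNA polymerase, was at 27.4, 21.8 and 26.7 CPM at 0 h and 50.7, 61.7 and 63.7 CPM at 72 h (1.21 ± 0.16 SE, adjusted p = 0.000253). The RNA exonuclease Pnpt1 also rose, a call lost without 0 h replicate 1, 0 h replicate 2 or 72 h replicate 1 (adjusted p from 0.0584 to 0.0720). Hsd17b10, a subunit of the enzyme that cuts the 5′ ends of mitochondrial transfer RNAs, fell (-1.59 ± 0.30 SE, adjusted p = 0.00283). The transcription factor Tfam (-0.08 ± 0.18 SE) and the mitochondrial RNA polymerase Polrmt (-0.01 ± 0.19 SE, 0.00 to 0.01 with RLE scaling, DESeq2, or the mitochondrial or crystallin RNAs left out) were not called.

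Assembly factors were mostly not called, against 38.5% of all genes called in either direction and 17.5% called lower. Their median log2 fold changes were -0.39 for complex I, -0.55 for complexes II and III, -0.35 for complex IV and 0.10 for complex V. The median of all genes was -0.02. Values below 0 were found in 13 of 17, 9 of 10, 13 of 16 and 2 of 4 tested factors, in that order. Of 17 for complex I, 1 fell (Ecsit, -1.22 ± 0.38 SE, adjusted p = 0.0294), a call lost in 4 of the 6 fits that leave out a library (adjusted p from 0.0682 to 0.123). Of 10 for complexes II and III, 2 fell (Uqcc2, -1.05 ± 0.27 SE, adjusted p = 0.0111, and Uqcc1). Uqcc2 lost the call without 0 h replicate 3 (adjusted p = 0.0544), and Uqcc1 without 0 h replicate 1, 0 h replicate 2 or 72 h replicate 2 (adjusted p from 0.0596 to 0.101). Of 16 tested for complex IV, 4 fell, with Cox14 at -1.13 ± 0.29 SE (adjusted p = 0.0115). None of 4 for complex V was called by edgeR, DESeq2 or limma voom, or had an unadjusted p under 0.05. Of 77 tested mitochondrial ribosomal protein genes 10 fell and 1 rose (median -0.34), below the shares of all genes called lower and higher. The fall with the smallest p was Mrps25 (-0.87 ± 0.15 SE, adjusted p = 0.00131), and the rise was Mrpl24 (0.68 ± 0.16 SE, adjusted p = 0.00837), whose call was lost without 0 h replicate 3 (adjusted p = 0.0505).

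Other mitochondrial functions are set against the same shares of all genes, 21.0% higher and 17.5% lower. Of 16 citric acid cycle genes 5 fell and 2 rose. Suclg2, of succinyl-CoA ligase, fell (-1.11 ± 0.17 SE, adjusted p = 0.000582) and Dlst, of the oxoglutarate dehydrogenase complex, rose (0.51 ± 0.11 SE, adjusted p = 0.00445). Of 21 import, porin and chaperone genes 4 rose and 4 fell, near those shares. The import channel Tomm40 rose (1.03 ± 0.15 SE, adjusted p = 0.00043), and the ADP/ATP carrier Slc25a4 fell (-0.79 ± 0.10 SE, adjusted p = 0.000234). Of 12 tested mitophagy genes 6 fell and 1 rose. The receptor Optn fell from 87.9 ± 3.14 to 29.9 ± 2.99 CPM (SD, n = 3, log2 fold change -1.56 ± 0.13 SE, adjusted p = 1.37e-05), and the adaptor Sqstm1 rose (0.69 ± 0.10 SE, adjusted p = 0.000387). The soluble electron carrier Cycs was not called (0.23 ± 0.23 SE) and was called higher without 72 h replicate 3 (adjusted p = 0.0283).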

How the data were processed

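The authors deposited unnormalized read counts, with 1 file for each library and 1 line for each Ensembl gene. Per the labels' protocols, RNA came from an RNeasy kit and sequencing libraries from Takara SMARTer Stranded Pico v2. The submitters' processing notes name HISAT2, HTSeq, edgeR and GRCm39, without versions, annotation or strand setting. Lines of no gene (44.0% ± 1.82 of reads at 0 h, 49.7% ± 1.86 at 72 h, SD, n = 3) were left out. GENCODE M21 (GRCm38) gave symbols for 51947 of 56940 identifiers, exon lengths and transcript sequences, and BLAST 2.17.0 compared these.

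Time was tested with the edgeR 4.0.16 quasi-likelihood test (TMM, filterByExpr with a minimum count of 10 and total of 15, robust, Benjamini-Hochberg over 15407 genes, two-sided, threshold 0.05). The spread behind each p-value is that between pools. SE is the log2 fold change divided by the square root of F, and the prior count was 0.125. Simulated counts tested the script. Members and lists were chosen with earlier results of these data known. Named genes were all mitochondrially encoded members, paralogue forms, the 3 largest falls and rises per complex with a mean of at least 10 CPM, its most abundant member, the smallest p in each direction per list, and listed regulators. Other names were chosen after their values were seen. The values of 1 nuclear member are not reported here; it stays in the fits and the counts. Alternatives were other scalings, DESeq2 1.42.0, limma 3.58.1 voom, other filters, a replicate block, mitochondrial or crystallin RNA left out, and each library left out.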

Additional observations from a re-analysis of the deposited data

Results flagged for a closer look

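The files' line for reads aligned to more than 1 place, which is not a gene's, held 7.32% of all counted reads on average in the 72 h libraries and 4.53% in the 0 h libraries. The value is given because it lies outside the gene counts that were compared and is above the level at 0 h in each 72 h library (6.68%, 7.01% and 8.26%, against 4.38%, 4.68% and 4.54%).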

How the results depend on the processing

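The counts of members called, by genome and by complex, their medians and the sums kept their direction, and the counts stayed within 1.5 times, in every alternative scaling, tool, filter and gene set. The exceptions came from leaving out 1 library. The count of nuclear members lower was then 10 to 20 in complex I, 1 to 2 in complexes II and III each, and 4 to 10 in complex V, with fewer samples in each fit. Of 124 members and named genes tested, 74 kept direction and side of the threshold in all alternatives. The log2 fold changes that turned sign were all of genes not called. Atpif1 was -0.019 with library size alone and -0.060 with upper quartile scaling, and Ndufa4 -0.023 and -0.046 in those, -0.031 with limma voom and -0.025 with the replicate block. Ndufb8 was -0.035 with upper quartile scaling, -0.23 with limma voom and -0.26 with the replicate block. With RLE, DESeq2, mitochondrial RNA left out and crystallins left out, Polrmt was 0.0037, 0.0038, 0.0049 and 0.0078, and Uqcrc1 0.0061, 0.0063, 0.0072 and 0.010. The causes were not tested. With a library left out, Atp5g2 ranged from -0.31 to 0.12, Atp5g3 from -0.22 to 0.13, Atpif1 from -0.020 to 0.083, Cox4i2 from -0.51 to 0.68, Cox5a from -0.21 to 0.10, Ndufb8 from -0.96 to 0.40, Ndufc2 from -0.16 to 0.066, Sdhd from -0.096 to 0.40, Ndufa4 from -0.35 to 0.22, Ndufa4l2 from -1.42 to 0.25, Polrmt from -0.16 to 0.067, Uqcrc1 from -0.080 to 0.039 and Uqcrh from -0.24 to 0.027.

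Same-numbered libraries did not deviate together (correlations -0.04, 0.06 and -0.01). With 3 pools per time these values cannot show whether pools shared animals, so the pairing stays unknown. With the replicate block 10 mitochondrially encoded members were higher and 32 nuclear members lower, 17 of them in complex I, and the medians were 2.02 and -0.57. Depth limits mt-Co2, mt-Co3, mt-Atp6, mt-Nd4l and mt-Atp8, each under 100 counts on average.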

Other observations

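Genes of the chain that the symbol rule missed gave these values. Usmg5, a membrane subunit of ATP synthase, was at 15.4, 15.5 and 18.4 CPM at 0 h and 14.9, 7.97 and 6.97 CPM at 72 h. Ndufb1-ps, the mouse locus for a small complex I subunit that the annotation lists as non-coding, was at 13.1, 16.8 and 15.8 against 8.57, 11.4 and 13.3 CPM. Neither was called, and both were chosen after their values were seen. Within the c subunit genes, Atp5g3 gave 43.9% ± 5.40 of their summed counts at 0 h and 47.2% ± 2.24 at 72 h, and Atp5g1 gave 29.5% ± 1.37 and 23.3% ± 8.34 (SD, n = 3). The groups overlapped for both.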
